A study of Homo sapiens with 5 samples.

Results

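The 10 genes described here make, convert or consume NAD in HT-29 tumours, and they were read in 5 mRNA libraries across 4 diets. They are QPRT, NAPRT, NAMPT, NMNAT1, NADSYN1, NADK, NNT, PARP1, SIRT1 and NNMT, chosen by name as 10 of the 26364 genes listed in the files. HT-29 is an established human colon cancer line. The cells (200000 per graft) were placed under the skin of the back of female NOD SCID mice aged 5 weeks, an inbred strain without T and B cells, so every group shares that immune deficiency. The mice then ate their diets for 2 weeks, although the series text also speaks of a period of 3 weeks. 1 library came from mice on normal food, and 2 (replicates 1 and 2) came from mice whose food lacked methionine. 1 came from mice whose food lacked both tryptophan and niacin, and 1 from mice that ate none of these 3 nutrients, called here the combined omission. The labels do not say whether the methionine-free pair came from separate mice, so the p-values rest on a spread between samples that may be technical only.

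NAD is the electron carrier of central metabolism and the substrate of enzymes that split it into nicotinamide and ADP-ribose. Cells make it from tryptophan through quinolinate (the de novo route), from nicotinic acid (the Preiss-Handler route) and from nicotinamide (salvage). Niacin is the vitamin name for nicotinic acid and nicotinamide, so a diet without tryptophan and niacin lacks the dietary starting material of all these routes. NNMT adds a methyl group from S-adenosylmethionine, which is made from methionine, to nicotinamide and so takes it out of salvage. The series text gives this link between methionine and nicotinamide as the reason for the diets.

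Library totals ran from 433930 counts (combined omission) to 1088084 counts (normal food). A single count was therefore worth 0.919 to 2.30 counts-per-million units (CPM, the count scaled to its library's total). The limit that a count of 0 allows, 3 counts, equalled 2.76 to 6.91 CPM. Intervals around a CPM value are 95% exact Poisson intervals and cover counting error only. The 10 colon epithelium markers, such as KRT8 and EPCAM, summed to 12055 to 14338 CPM. Of 10 fibroblast markers 7 were at 0 in all libraries, among them DCN, PDGFRB and COL1A2, and the list summed to 16.1 to 21.2 CPM. Of 7 myeloid markers 4 were at 0 in all libraries (PTPRC, CSF1R, C1QA and C1QB), and the list summed to 34.6 to 63.4 CPM. All 6 lymphocyte markers were at 0. Of 6 endothelial markers 4 were at 0 in all libraries and the list summed to 32.4 to 50.6 CPM, and of 5 adipocyte markers 3 were at 0 and the list summed to 5.59 to 10.3 CPM. Of 7 skeletal muscle markers CKM was at 0 in all libraries. The list summed to 68.7 CPM in the tryptophan/niacin-free library and at most 3.68 CPM in the others. Of the 42 rounded counts behind the 68.7 CPM, MYH1 had 14, MYH2 15 and MYH4 12, so the sum rests almost wholly on these myosin genes. Their part in the results on that library was not tested. Host cells in the grafts are mouse cells and the counts are of human genes, so these lists do not show whether host cells were present. Titles of the libraries follow 2 styles, 1 for normal food and the combined omission and 1 for the other 3, and any difference in work-up behind these styles cannot be told apart from diet in comparisons across them.

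Of 8 genes listed for the route from tryptophan to quinolinate 7 had at most 7 counts in any library. The gene that uses nicotinic acid was the most expressed of the 10 NAD genes. For scale, 16359 of the 26364 genes in the files did not pass the filter on low counts. Levels of different genes were compared as CPM per kilobase of exon, with exon lengths from GENCODE release 29. NAPRT, the first enzyme of the Preiss-Handler route, had a mean of 115 CPM per kilobase over the 5 libraries (range 107 to 129). NADSYN1, the glutamine-using enzyme that completes NAD on that route and on the de novo route, followed with 41.8 (30.8 to 51.0). NADK, which phosphorylates NAD to NADP, had 33.3 (28.9 to 37.4), and PARP1, the main poly-ADP-ribose polymerase of DNA repair, had 30.9 (29.3 to 34.4). QPRT, which converts quinolinate to nicotinic acid mononucleotide, had 18.9 CPM per kilobase (13.2 to 24.6), and NAMPT, the rate-limiting enzyme of nicotinamide salvage, had 17.7 (15.3 to 21.7). NNT, the mitochondrial pump that passes electrons from NADH to NADP, had 8.21 (5.10 to 10.3), and SIRT1, a nuclear NAD-dependent deacetylase, had 4.36 (3.54 to 5.05). NNMT had 3.47 (0.933 to 5.37) and NMNAT1, the nuclear enzyme that joins the mononucleotide to adenylate, had 1.72 (1.26 to 2.28).

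Not all neighbours in this order were separated. NAPRT lay above NADSYN1, PARP1 above QPRT, NAMPT above NNT and NNT above SIRT1 in 5 of 5 libraries. NADSYN1 over NADK, NADK over PARP1 and NNMT over NMNAT1 held in 4 of 5, and QPRT over NAMPT and SIRT1 over NNMT in 3 of 5, so these neighbours overlapped in their ranges. Lengths from the longest protein-coding transcript, an alternative chosen after seeing the data, gave all 10 genes the same place in the order.

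Ahead of QPRT on the de novo route, 8 genes were listed (TDO2, IDO1, IDO2, AFMID, KYNU, KMO, HAAO and ACMSD, of which ACMSD diverts the route away from NAD). TDO2 and IDO2, which open the tryptophan ring, were at 0 in every library. Together with IDO1, HAAO and ACMSD they summed to 3.5 deposited counts over all 5 libraries. KYNU, which cleaves kynurenine and its hydroxylated form, had 7 counts on normal food and at most 2 rounded counts elsewhere. KMO, which hydroxylates kynurenine, had 6 rounded counts on normal food and 6 in the tryptophan/niacin-free library, and at most 2 in the others. AFMID, the formamidase of the route, was the only one of the 8 above the filter on low counts, at 28.5 CPM on normal food, 28.9 and 20.6 CPM in the methionine-free pair, 33.1 CPM in the tryptophan/niacin-free library and 59.9 CPM in the combined omission.

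**Figure D1:**
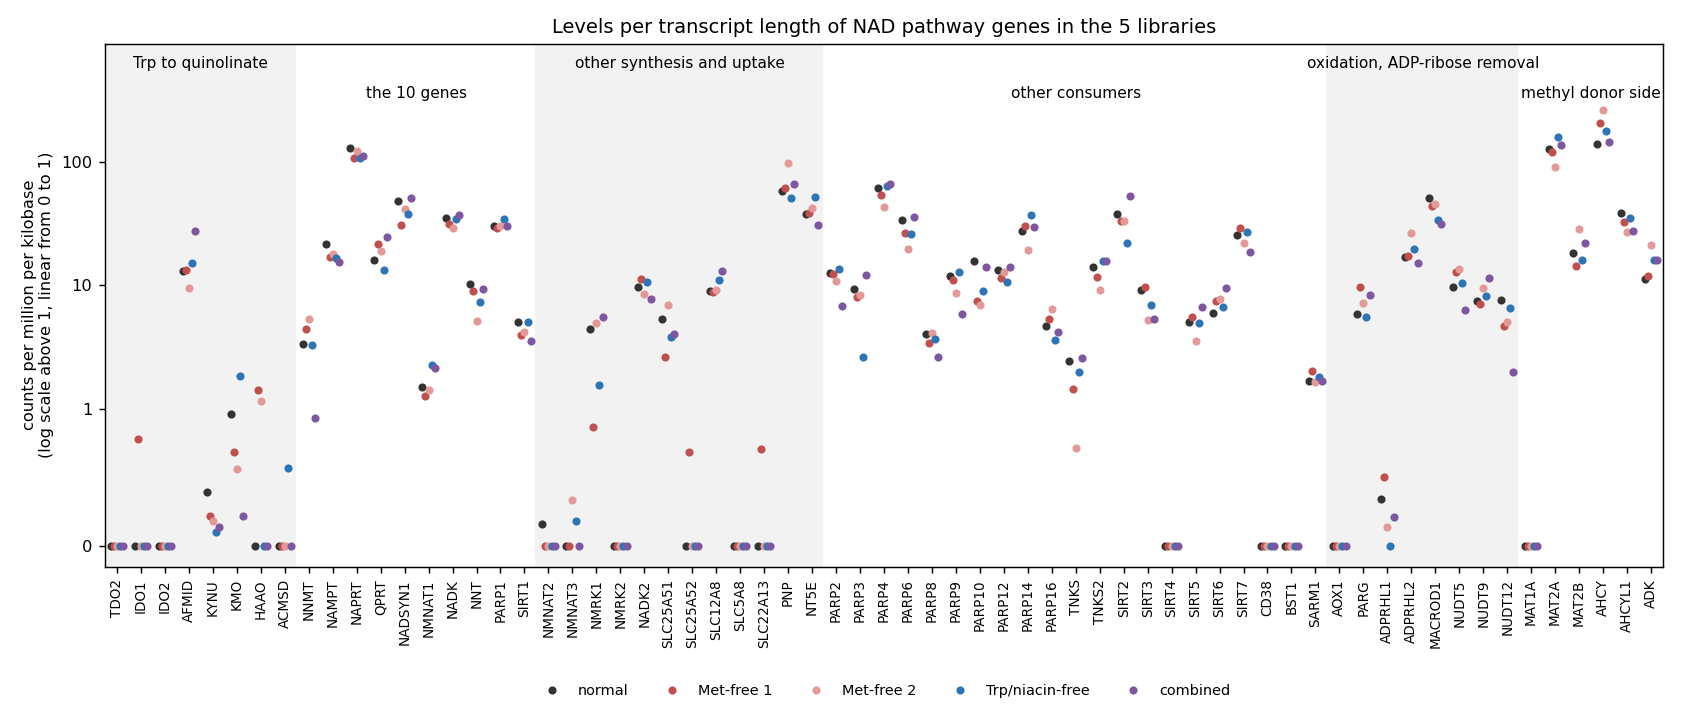
CPM per kilobase (vertical axis, logarithmic above 1 and linear from 0 to 1) for the NAD genes and the wider pathway lists, with 1 point per library and colours for the diets. NAPRT lies at 107 to 129 in all 5 libraries, while TDO2, IDO2, CD38, BST1, SIRT4 and AOX1 lie at 0 in all of them and NNMT between 0.933 and 5.37.

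Among the 10 genes, QPRT lay higher in the libraries from diets without methionine than in those with it, by a margin that did not pass the test given further on. It stood at 37.7 CPM on normal food, 50.6 and 44.5 CPM in the methionine-free pair (47.5 ± 4.33, SD, n = 2), 31.0 CPM without tryptophan and niacin, and 57.6 CPM in the combined omission. All 3 libraries without methionine in the food lay above both libraries with it. The share of all tested genes that split in this way was not counted, so the split is no result about QPRT. The counts behind the QPRT values were 41, 28, 30.17, 19 and 25. The counting intervals of its lowest library (18.6 to 48.4 CPM) and its highest (37.3 to 85.0 CPM) overlapped. In GENCODE a protein-coding gene on the same strand (AC009086.2) overlaps QPRT, and how reads shared with it were counted is not given.

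NAPRT stood at 277 CPM on normal food, 231 and 262 CPM without methionine (247 ± 22.0, SD, n = 2), 230 CPM without tryptophan and niacin, and 237 CPM in the combined omission. Its highest library was 1.20 times its lowest, a narrower range than in the other genes except PARP1 (1.18 times). The normal library was the highest, and the methionine-free replicates took the places from the second to the fourth with the combined omission between them.

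NAMPT stood at 101 CPM on normal food, 79.5 and 84.0 CPM without methionine (81.7 ± 3.18, SD, n = 2), 78.2 CPM without tryptophan and niacin, and 71.4 CPM in the combined omission. It was below its normal level in 4 of 4 libraries from restricted diets, as were NAPRT, NNT and SIRT1. The share of all tested genes with this pattern was not counted. The combined omission was the lowest library for NAMPT. The summed myeloid markers (CD68, CD14 and ITGAM, the other 4 being at 0) had the same order of libraries, with 63.4 CPM on normal food, 43.4 and 44.2 CPM without methionine, 40.7 CPM without tryptophan and niacin, and 34.6 CPM in the combined omission. This sum rested on 15 to 69 counts per library, and how many genes share the order was not counted. Myeloid cells of the host would be mouse cells, while the counts are of human genes. With 4 of 7 markers at 0, PTPRC among them, this sum shows neither the presence nor the absence of such cells. The part of these markers in the NAMPT values was not tested. The counting interval of the normal library (83.1 to 122 CPM) overlapped that of each other library, the nearest being 48.5 to 101 CPM in the combined omission. NAMPT has processed pseudogenes (NAMPTP1, NAMPTP2 and NAMPTP3 in GENCODE), and how reads shared with such copies were counted is not given in the sources used here.

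The mRNA levels of the genes for nicotinic acid use and nicotinamide salvage were set against each other within each library. The measure was the ratio of NAPRT to NAMPT per kilobase, which needs no scaling between libraries. This ratio is not a measure of pathway use, and its intervals do not cover the choice of exon lengths. It was 5.95 on normal food (95% exact binomial interval 4.77 to 7.47), 6.33 (4.46 to 9.13) and 6.79 (5.01 to 9.32) without methionine, 6.39 (4.57 to 9.06) without tryptophan and niacin, and 7.23 (4.80 to 11.2) in the combined omission. NAPRT was thus the higher of the pair in every library, and all 5 intervals overlapped.

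NADSYN1 stood at 181 CPM on normal food, 116 and 155 CPM without methionine (135 ± 27.6, SD, n = 2), 142 CPM without tryptophan and niacin, and 191 CPM in the combined omission. The lowest library was methionine-free replicate 1 (interval 89.0 to 148 CPM) and the highest was the combined omission (152 to 237 CPM). These intervals did not overlap, but the methionine-free pair itself differed 1.45-fold after TMM scaling (counting interval 1.05 to 2.01). Without the TMM factors (1.01 for replicate 1 and 0.926 for replicate 2) the difference is smaller and its interval includes 1.

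NMNAT1 rested on few counts, with 7 on normal food, 3 and 4.17 without methionine, 6 without tryptophan and niacin, and 4 in the combined omission. In CPM this was 6.43, 5.42, 6.14, 9.78 and 9.22 in the same order, and every interval overlapped every other. The other adenylylating enzymes were lower still, with 1 count of NMNAT2 on normal food and at most 2 rounded counts of NMNAT3 in any library. NMNAT1 also has 5 processed pseudogenes in GENCODE, so its counts are uncertain.

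The pair of genes that set the phosphorylated and reduced forms of the cofactor differed in spread. NADK stood at 135 CPM on normal food, 121 and 112 CPM without methionine, 134 CPM without tryptophan and niacin, and 145 CPM in the combined omission, and all 5 counting intervals overlapped. NNT stood at 68.5 CPM on normal food, 59.6 and 33.9 CPM without methionine (46.8 ± 18.2, SD, n = 2), 48.9 CPM without tryptophan and niacin, and 62.2 CPM in the combined omission. Normal food was highest, and the low end was methionine-free replicate 2 alone, whose interval (21.5 to 50.9 CPM) lay below that of the normal library (53.4 to 85.4 CPM). NNT has the longest exons of the 10 genes (6651 bases), and its overlapping antisense gene NNT-AS1 had 1 to 12 counts, which cannot be told from NNT without the strand setting of the counting.

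The NAD consumers PARP1 and SIRT1 ranged 1.18-fold and 1.42-fold over the 5 libraries. PARP1 stood at 129 CPM on normal food, 125 and 128 CPM without methionine, 147 CPM without tryptophan and niacin, and 129 CPM in the combined omission. SIRT1 stood at 23.0, 18.1, 19.2, 22.8 and 16.1 CPM in the same order, from 25, 10, 13, 14 and 7 counts. SIRT1 lay lower in all 3 libraries without methionine in the food than in both with it, by a margin that did not pass the test either. As for QPRT, the share of all tested genes with such a split was not counted. The tryptophan/niacin-free library was the highest for PARP1, and the intervals of all 5 libraries overlapped for both genes. PARP1 also has processed pseudogenes in GENCODE (PARP1P1 and PARP1P2), and how reads shared with them were counted is not given.

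NNMT, the methyltransferase that joins the methionine and nicotinamide pathways, was near the limit of detection on every diet. Its counts were 9 on normal food, 6 and 9 without methionine, 5 without tryptophan and niacin, and 1 in the combined omission. In CPM this was 8.27, 10.8, 13.3, 8.15 and 2.30 in the same order. At the level of the normal library the shallow combined-omission library would have held 3.59 counts, so that its value of 1 count (interval 0.0583 to 12.8 CPM) is not distinguishable from the normal level at this depth. With TMM scaling over the unfiltered genes, the ratio of the combined omission to normal food was 0.269 with a counting interval of 0.00614 to 1.94. Scaled to library totals instead, its ratio to the methionine-free pair (15 counts) was 0.189 with an interval of 0.00450 to 1.23. The methionine-free pair stood at 1.47 times the normal library (0.603 to 3.81), also on library totals. In bulk tissue, fewer cells with a transcript and less of it per cell cannot be told apart.

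**Figure D2:**
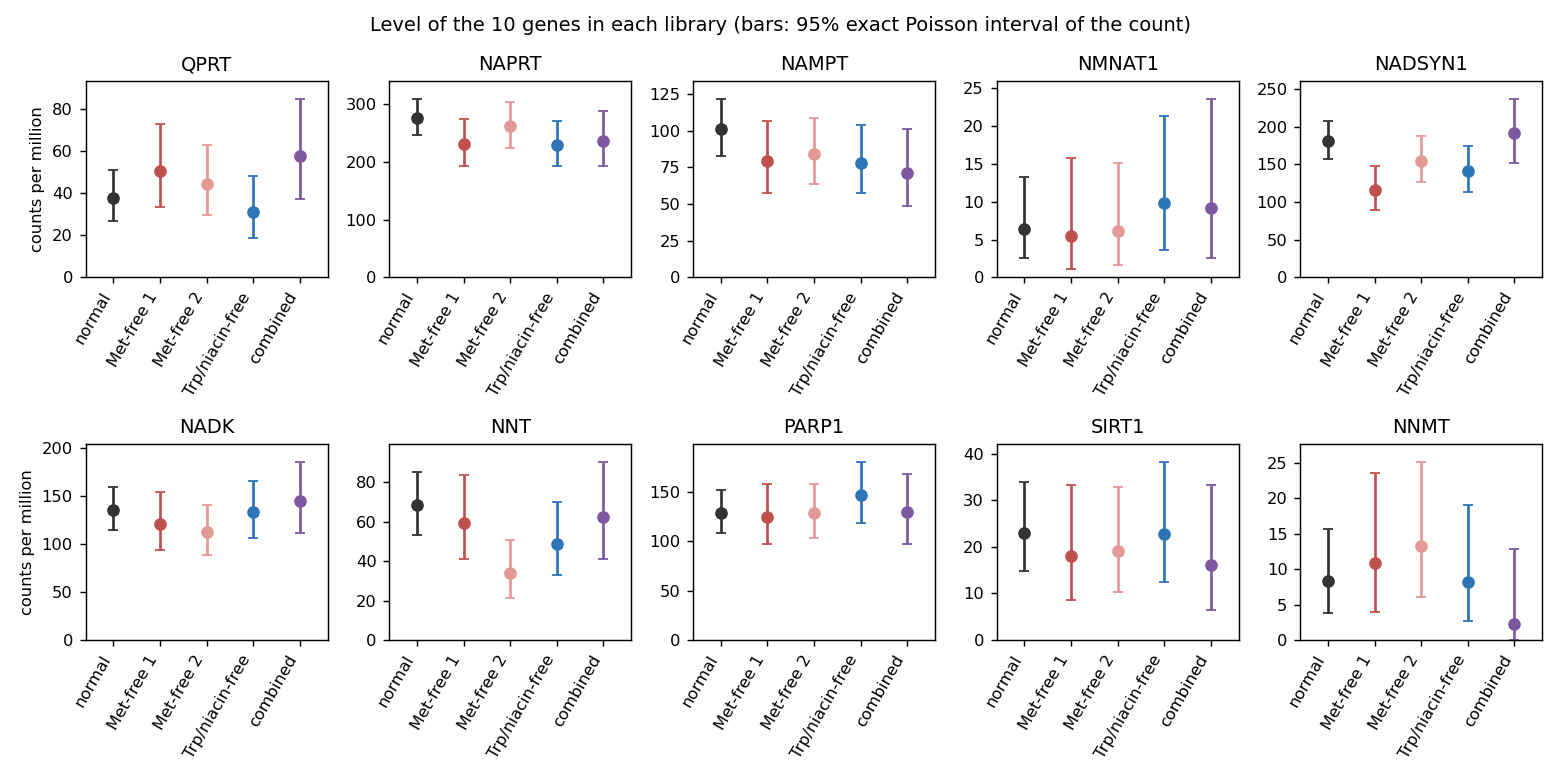
CPM (vertical axis, from 0, scaled per gene) of the 10 genes in the 5 libraries (horizontal axis); points are library values and bars 95% exact Poisson intervals. NAMPT is highest on normal food (101 against 71.4 to 84.0 elsewhere), QPRT is highest in the combined omission (57.6), and NNT is lowest in methionine-free replicate 2 (33.9).

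Leaving out methionine alone was tested against normal food, and none of the NAD genes passed. Across the genome 23 of 10005 tested genes did (0.230%), by edgeR's quasi-likelihood test with Benjamini-Hochberg adjustment over all tested genes and a threshold of 0.05. NNMT and NMNAT1 did not pass the filter on low counts, which left 8 of the 10 genes in the test. Of these, 0 passed. Without adjustment, 0 of the 8 had an edgeR p under the threshold, beside 7.68% of all tested genes, and DESeq2 gave 0 of 8 with or without adjustment. The highest was QPRT (log2 fold change 0.39, SE 0.452, adjusted p = 0.899; 95% interval of the fold 0.709 to 2.42) and the lowest NNT (−0.50, SE 0.424, adjusted p = 0.844; 0.397 to 1.26). NAMPT had −0.24 (fold interval 0.492 to 1.46) and NAPRT −0.10 (0.520 to 1.69). The value of NNT leaned on replicate 2: without it the log2 fold change was −0.19, and without replicate 1 it was −0.88. NAMPT likewise had −0.34 and −0.14, and with the length offset (a correction for each library's trend over transcript length) NNT had −0.29, NAMPT −0.12 and NAPRT −0.24. Over all 10 genes the median difference in log2 CPM (TMM scaling, prior count 2) was −0.12, with 3 above 0, beside −0.01 and 49.0% above 0 over the tested genes.

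Adding the tryptophan and niacin omission to the methionine omission was tested as the combined omission against the methionine-free pair. Of the 8 genes 0 passed by edgeR or DESeq2, beside 3 of 10005 genes (0.0300%) by edgeR. Unadjusted, 0 of 8 passed by either tool, beside 7.57% of all tested genes by edgeR. NADSYN1 was highest (log2 fold change 0.42, SE 0.434, adjusted p = 0.850; fold interval 0.740 to 2.41). Without replicate 1 its value was 0.18 and without replicate 2 it was 0.72. SIRT1 was lowest (−0.28, SE 0.746, adjusted p = 0.954; 0.299 to 2.27). NAMPT had −0.27 (0.445 to 1.55) and NAPRT −0.13 (0.493 to 1.69). Without replicate 2 SIRT1 had −0.17 and NAMPT −0.16, and without replicate 1 they had −0.37 and −0.36.

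The tryptophan/niacin-free library against the methionine-free pair gave 0 of 8 and, over all genes, 0 of 10005 (0.00%) by edgeR. Unadjusted, edgeR had 491 of all genes (4.91%) and 0 of the 8 under the threshold, and DESeq2 called 0 genes, with 31 unadjusted. QPRT was lowest, with a log2 fold change of −0.71 (SE 0.508, adjusted p = 0.992) and a fold interval of 0.306 to 1.22. SIRT1 was highest at 0.18 (0.477 to 2.69), and NAMPT had −0.17 (0.492 to 1.60). Without replicate 2 NAMPT had −0.066 and SIRT1 0.29, and without replicate 1 they had −0.27 and 0.088. With the length offset they had −0.27 and 0.092.

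Each omission was also averaged over the presence and absence of the other, in a model with 1 term for methionine and 1 for tryptophan with niacin. These averages gave the narrowest intervals. For the tryptophan/niacin omission NAMPT was lowest (log2 fold change −0.34, SE 0.293, adjusted p = 1.00; fold interval 0.510 to 1.23). NAPRT had −0.21 (0.572 to 1.31; −0.099 with the length offset), and NADK was highest at 0.11 (0.713 to 1.63). The widest bounds among the 8 belonged to SIRT1, at 0.461 to 1.75. For the methionine omission QPRT was highest (0.59, SE 0.320, unadjusted p = 0.0892 and adjusted p = 1.00 by edgeR; fold interval 0.930 to 2.43), and SIRT1 was lowest (−0.31, SE 0.421, unadjusted p = 0.476 and adjusted p = 1.00 by edgeR; 0.428 to 1.52). NAPRT had −0.02 (0.655 to 1.48) and NAMPT −0.18 (0.575 to 1.35; −0.12 without replicate 1 and −0.11 with the length offset). In both averages 0 of 8 passed by edgeR or DESeq2, adjusted or not, beside 0 of 10005 genes (0.00% in each). Unadjusted, 163 genes (1.63%) passed for the tryptophan/niacin omission and 173 (1.73%) for the methionine omission by edgeR, and 22 and 23 by DESeq2.

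An interaction term tested if the methionine effect differed with the other nutrients, as the effect when tryptophan and niacin were missing minus the effect when they were present. Of the 8 genes 0 passed by edgeR or DESeq2, beside 43 of 10005 genes (0.430%) by edgeR, and 0 passed unadjusted, beside 6.45%. NNT was highest (log2 difference of effects 0.88, SE 0.696, adjusted p = 0.926), with an interval from 0.716 to 4.75 on the fold scale, and SIRT1 lowest (−0.23; 0.219 to 3.32). Without replicate 2 the value of NNT was 0.57, and without replicate 1 it was 1.26. NAMPT had 0.14 (0.450 to 2.71), with 0.25 without replicate 2, 0.048 without replicate 1 and 0.019 with the length offset. SIRT1 had −0.12 without replicate 2 and −0.34 with the length offset.

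**Figure D3:**
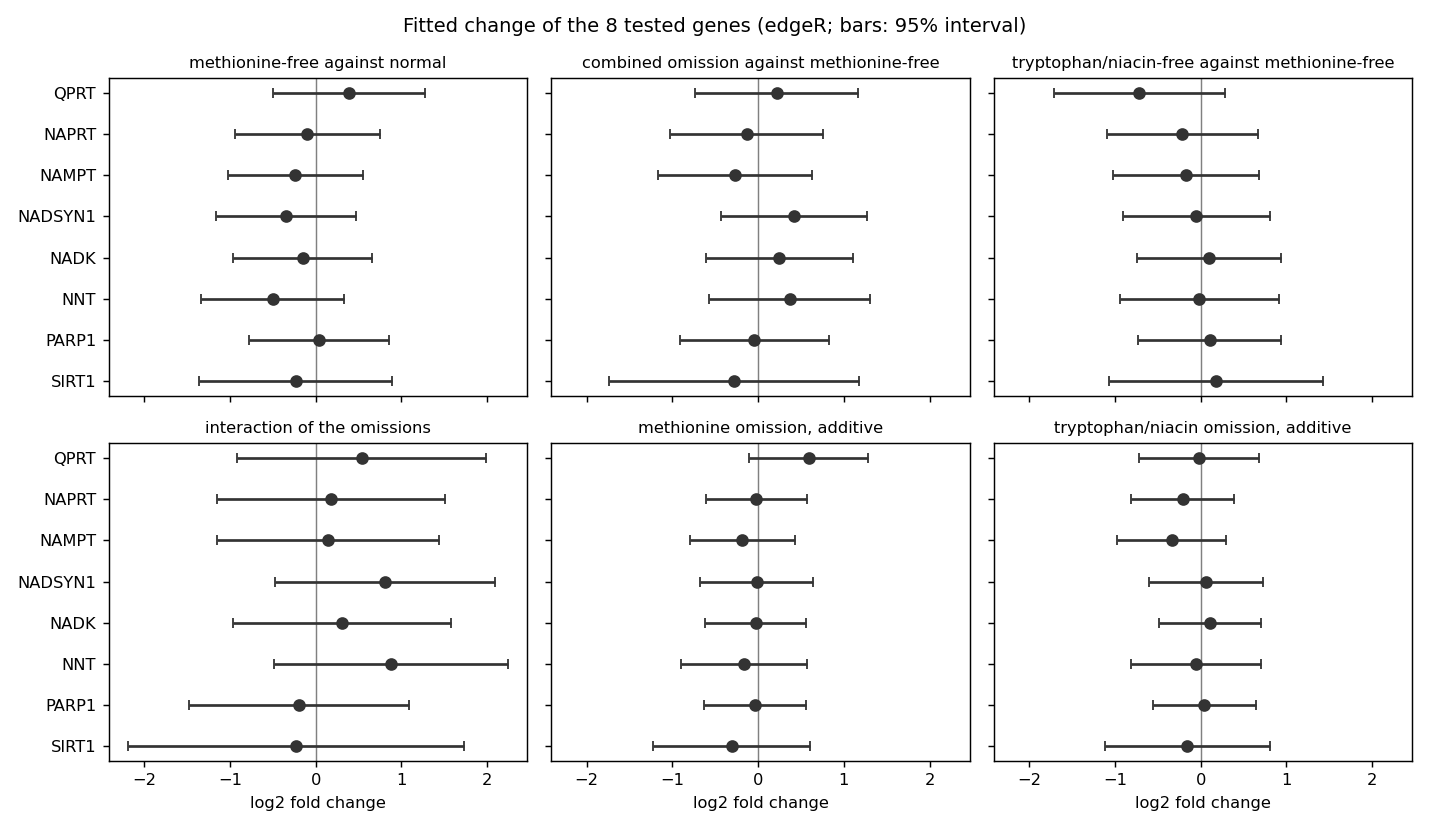
Log2 fold change (horizontal axis) of the 8 tested genes in the 6 tested comparisons, with bars for 95% intervals from edgeR's quasi-likelihood fit. All bars cross 0, and the shortest are those of the additive model, such as NAMPT for the tryptophan/niacin omission at −0.34 (−0.97 to 0.30).

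Comparisons between single libraries have no replicate check and were not tested. A size rule stood in for a test: at least a 2-fold difference in TMM-scaled log2 CPM and a count ratio whose 95% exact binomial interval excludes 1. These ratios use TMM scaling, unlike the CPM values above, which use library totals. Between tryptophan/niacin-free and normal food 0 of 8 genes lay beyond it, beside 352 of 10005 (3.52%). NAPRT stood at 0.807 times its normal level (0.656 to 0.988) and NADSYN1 at 0.760 times (0.584 to 0.983). These intervals exclude 1 at a size far under 2-fold, but they cover counting error only and not the spread between libraries. For NADSYN1 the interval between the methionine-free replicates, which share a diet, also excluded 1 with the TMM factors and included it without them. The share of all tested genes whose interval excludes 1 was not counted. NAMPT stood at 0.751 times (0.524 to 1.06), NNT at 0.698 times (0.441 to 1.08) and PARP1, the highest of the 8, at 1.11 times (0.840 to 1.45). Over all 10 genes the median log2 difference was −0.18 with 2 above 0, beside −0.01 and 49.5% over the tested genes. The methionine-free replicates, which share a diet, differed by 0.17 in the same median with 8 of 10 above 0.

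Between the combined omission and normal food 0 of 8 lay beyond the size rule, beside 202 of 10005 (2.02%). QPRT was highest at 1.52 times its normal level (0.887 to 2.56), NAMPT stood at 0.703 times (0.456 to 1.06), NAPRT at 0.854 times (0.676 to 1.07) and PARP1 at 0.998 times (0.719 to 1.37). Over all 10 genes the median log2 difference was −0.07 with 4 above 0, beside −0.01 and 48.5% over the tested genes. Between the combined omission and the tryptophan/niacin-free library 0 of 8 lay beyond the rule, beside 404 of 10005 (4.04%). QPRT came nearest, at 1.91 times (1.01 to 3.66), followed by NADSYN1 at 1.38 times (1.01 to 1.89), while NAPRT stood at 1.06 times (0.813 to 1.37). Without the TMM factors the intervals of QPRT and NADSYN1 include 1 as well. As a measure of spread between libraries of 1 diet, 660 of 10005 genes (6.60%) and 0 of the 8 lay beyond the rule between the methionine-free replicates. NNT differed most there, at 0.617 times in replicate 2 (0.346 to 1.08).

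**Figure D4:**
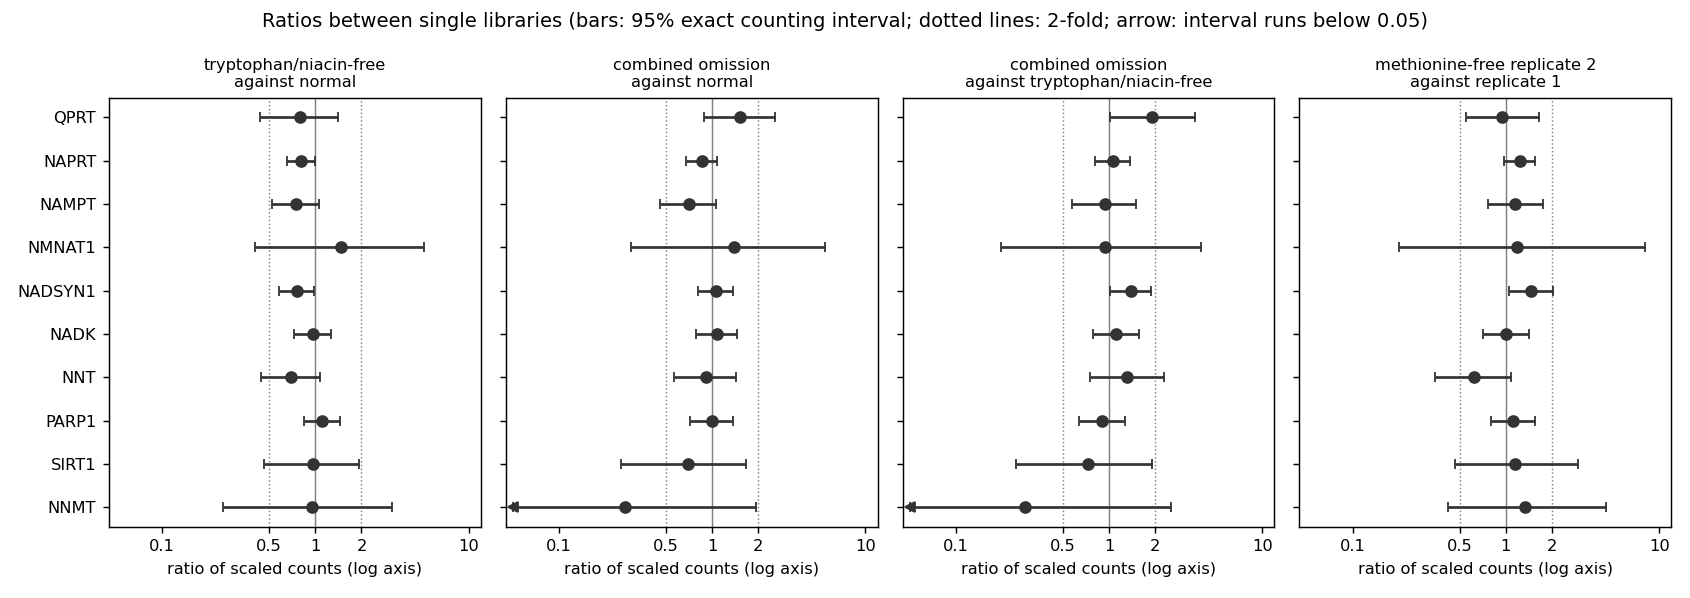
Ratio of scaled counts between single libraries (horizontal, logarithmic axis) for the 10 genes, with bars for 95% exact counting intervals and dotted lines at 2-fold. NNMT and NMNAT1 have the widest bars, QPRT in the combined omission against the tryptophan/niacin-free library lies at 1.91, and the panel of the methionine-free replicates shows the spread within 1 diet.

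The wider NAD pathway was read from 5 lists with 55 genes, of which 33 passed the filter on low counts. In the 6 tested comparisons 0 of the 33 passed by edgeR or by DESeq2. Unadjusted by edgeR, 2 of 33 did for methionine-free against normal food, beside 7.68% of all tested genes. They were the mono-ADP-ribosyltransferase PARP10 (log2 fold change −1.06) and the polymerase TNKS (−1.14). In the combined omission against methionine-free 2 of 33 did, beside 7.57%, namely AFMID (1.21, adjusted p = 0.586 by edgeR) and the ADP-ribose pyrophosphatase NUDT5 (−1.18). In the tryptophan/niacin-free library against methionine-free 1 of 33 did, beside 4.91%, namely PARP3 (−1.72), a PARP family enzyme of DNA break repair. In the interaction 3 of 33 did, beside 6.45%, namely PARP3, PARP10 and SIRT2, and in the additive model 0. These shares of the 33 were near the background and are no result about the lists.

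Among the 21 other NAD consumers, the NAD glycohydrolases CD38 and BST1 and the mitochondrial sirtuin SIRT4 were at 0 in all 5 libraries. PARP3 had 4 counts in the tryptophan/niacin-free library against 25 on normal food, a ratio of 0.275 (0.0697 to 0.798), and was the only 1 of the 17 tested consumers beyond the size rule there, beside 3.52% of all tested genes. Against that library, the combined omission was beyond the rule in 3 of the 17, beside 4.04%. PARP3 was 4.71 times as high (1.46 to 19.8) and the cytoplasmic deacetylase SIRT2 2.45 times (1.52 to 4.02), from 47.3 to 113 CPM. PARP9, an interferon-induced member of the family, was 0.468 times as high (0.267 to 0.785). SIRT2 stood at 80.9 CPM on normal food and at 70.5 and 70.7 CPM without methionine, so that the tryptophan/niacin-free library was the lowest and the combined omission the highest of the 5.

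Of the 12 other genes of NAD synthesis and uptake, 4 were tested and 0 lay beyond a threshold in any comparison. They were NADK2, the mitochondrial NAD kinase, SLC12A8, PNP, the purine nucleoside phosphorylase, and NT5E, an ectonucleotidase. Of the 8 genes of nicotinamide oxidation and ADP-ribose removal, AOX1 was at 0 in all libraries. NUDT12, a peroxisomal pyrophosphatase that acts on NADH, had 3 counts in the combined omission against 29 on normal food, a ratio of 0.258 (0.0503 to 0.833), and was the only 1 of the 6 tested genes of this list beyond the size rule there, beside 2.02% of all tested genes. Between the replicates of the methionine-free diet 6.60% of all tested genes lay beyond the same rule.

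On the methyl donor side of the NNMT reaction, MAT2A, which makes S-adenosylmethionine, and AHCY, which clears the product of methylation, were abundant while NNMT was not. Per kilobase MAT2A had 128 CPM on normal food, 121 and 90.1 without methionine, 157 without tryptophan and niacin and 138 in the combined omission. AHCY had 139, 204, 264, 177 and 143 in the same order. Both replicates of the methionine-free pair were the highest libraries for AHCY, with 0 of the 5 tested genes of this list past the threshold or the size rule between diets. MAT2B, the regulatory subunit, differed 2.18-fold (1.41 to 3.46) between the replicates of the methionine-free pair, beyond the size rule within 1 diet.

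The genes most like NAMPT over the 5 libraries were sought among 3267 genes with at least 30 counts in every library, by the root mean square difference of centred log2 CPM. They were SERPINB1, a protease inhibitor (0.03), UGP2, which makes UDP-glucose (0.05), and POF1B (0.06), where the median candidate had 0.30. SERPINB1 stood at 285 CPM on normal food, 238 and 252 CPM without methionine, 233 CPM without tryptophan and niacin, and 210 CPM in the combined omission. Like NAMPT it was highest on normal food and lowest in the combined omission. With 5 libraries, and differences in NAMPT that did not exceed counting error, this likeness is a description only. NNMT, with 1 count in a library, was below the minimum set for the same search.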

How the data were processed

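The authors deposited 1 file of expected counts per library, that is, estimated counts per gene symbol that need not be whole (15.2% to 17.6% of values above 0 carried decimals). Per the submitters' processing notes, the tools were featureCounts, SAMtools 0.1.18, TopHat2 2.1.1, Subread 2.0.0 and Bowtie2 2.2.8, with hg19 as the build. No source used here gives the annotation, the strand setting or any removal of mouse reads. Groups came from the treatment labels. Expected counts were rounded, filterByExpr kept 10005 genes, and TMM scaling (factors 0.926 to 1.04) preceded quasi-likelihood F-tests in edgeR 4.0.16 (R 4.3.3) with 1 mean per diet (1 residual degree of freedom, which the methionine-free replicates supply, and a biological coefficient of variation of 0.207) or with additive terms (2 degrees and 0.227). Diets with a lone library were assumed to vary like the pair. In the fit with 1 mean per diet the prior degrees of freedom were infinite, so the quasi-likelihood spread was shared fully across genes. Its SEs, p-values and intervals therefore do not reflect a gene's own difference between the methionine-free replicates. DESeq2 1.42.0 was an alternative, and scripts were tested on simulated data. Coordinates are not given, since the reference (GENCODE 29, used for exon lengths and names) is of another build. The members and lists were chosen with earlier results of these data known. Named genes were all 10 members and the listed genes past a threshold, beyond the size rule or with the most extreme difference of their list; other listed genes were named after their values were seen. For likeness the rule was the 3 nearest genes. Alternatives were DESeq2 size factors, DESeq2, no filter, a length trend offset and each methionine-free library left out, and for single libraries total-count scaling and a prior count of 0.5.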

Additional observations from a re-analysis of the deposited data

How the results depend on the processing

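None of the 10 genes passed a threshold under any alternative run for any comparison, including the fit without a filter on low counts, which tested all 10. The number of genes called over the whole table did move. For methionine-free against normal food it was 12 with the length offset and 1 with DESeq2, in place of 23. For the combined omission against methionine-free it was 1 with the length offset and 0 with DESeq2 (37 unadjusted), in place of 3. For the interaction it was 2 with DESeq2, in place of 43. NAPRT, close to 0 in each case, changed sign in 3 comparisons. For methionine-free against normal food its log2 fold change was −0.25 to 0.047 when a methionine-free library was left out. For the combined omission against methionine-free it was −0.27 to 0.031 in that way and 0.031 with the length offset. For the additive methionine term it was −0.092 to 0.065. The cause was not tested. The other 203 single values compared kept their direction. Leaving out a methionine-free library ends the test of the model with 1 mean per diet, so only values are given there. No paired analysis was possible because the labels give the diets no shared replicate numbers. In the combined omission against normal food 1 of the 33 pathway genes lay beyond the size rule, beside 202 of 10005 tested genes. With a prior count of 0.5 it was 3 of the 33, beside 245 of 10005. Between the methionine-free replicates MAT2B was not beyond it with total-count scaling. The intervals between single libraries that excluded 1 for NAPRT, NADSYN1 and QPRT included it without the TMM factors. Depth limits NNMT and NMNAT1 most, with at most 9 counts in any library.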
